A study of Mus musculus with 22 samples.

Results

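The livers examined here were taken 12 and 16 h after a single injection of interferon-gamma. They are 4 of the 22 arrays of a time course in mouse liver, 1 array for each time in each of 2 genotypes. They were set against 4 control arrays, the untreated liver and the liver taken 4 h after phosphate-buffered saline (PBS) in each genotype, with genotype as a covariate. The arrays were chosen by treatment and time, except that the livers taken 12 h after PBS were left out of the controls because earlier results showed raised interferon-inducible genes on them. They enter a comparison of their own.

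Every mouse lacked interferon-gamma (IFNg-/-), and the second genotype also lacked the suppressor of cytokine signalling 1 (SOCS1-/-IFNg-/-), so any interferon-gamma in these animals was the injected recombinant protein, 4 µg in 100 µl given intraperitoneally. PBS was given in the same volume of 100 µl. There was 1 array per condition and no replicate; the labels do not give the age, sex or strain of the mice, how the alleles were made, or whether a liver came from 1 mouse or a pool. Livers of 2 times therefore stand in for replicates, and each p-value reflects only how far these arrays vary. A PBS liver of 16 h was not analysed here, and the control livers are not matched in time of day to the treated ones as far as the labels say. Values are log2 expression, and a difference of 1 is a doubling.

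Interferon-gamma binds a receptor that activates the kinases JAK1 and JAK2, and the signal reaches promoters that hold gamma-activated sequences (GAS). Factors of the IRF family are induced in turn, which act on interferon-stimulated response elements (ISRE) and carry the response on after the first hours. SOCS1 is itself induced and shuts the receptor's kinases down, and mice that lack it die young unless interferon-gamma is also removed. In liver, interferon-gamma acts on hepatocytes, on the resident macrophages called Kupffer cells and on endothelial cells. The genes it induces serve antigen presentation, defence inside the cell and the recruitment of T cells.

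Both deleted genes were looked at first. Socs1 stood between 6.57 and 6.80 on the 8 arrays compared, and its difference at 12 and 16 h was 0.06 ± 0.06 (standard error, SE; adjusted p = 0.708 by limma). Its rise in IFNg-/- was over by then: it was 9.21 at 2 h and 6.80 at both 12 and 16 h. In SOCS1-/-IFNg-/- Socs1 was 6.74 at 2 h. On the compared arrays of that genotype it lay between 6.57 and 6.77, above the median of 6.05 over all genes and arrays. Ifng lay between 2.31 and 2.61 on these 8 arrays, far below the median of 6.05 over all genes and arrays. Where the probes lie relative to the deletions was not examined. The 22 array medians lay between 5.64 and 5.71. The 3-prime to 5-prime difference of Actb, a sign of RNA integrity, was 1.32 and 1.31 on the untreated arrays, 0.83 and 0.66 on the PBS 4 h arrays and between 0.62 and 1.13 on the 12 and 16 h arrays. That of Gapdh was 1.16 on the SOCS1-/-IFNg-/- 12 h array and at most 0.85 on every other array. Hepatocyte markers were high on all 8 arrays, with Alb between 13.18 and 13.31.

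At 12 and 16 h the liver carried high transcripts of the T cell chemokine Cxcl9, of interferon-induced GTPases, of the immunoproteasome and of acute phase proteins. Of 8251 genes, limma called 84 (1.02%) at a Benjamini-Hochberg adjusted p under 0.05, 74 higher (0.897%) and 10 lower (0.121%). Before adjustment 1054 genes passed a p of 0.05, and 413 would by chance. The difference was 1 or more in size for 35 of the 84 genes, and the median over all genes was -0.02. The treated and control arrays did not overlap in 578 genes (7.01%), of which 287 were higher and 291 lower. The calls rest on few arrays. Against the PBS 4 h arrays alone 20 genes were called and all 20 were higher, and leaving out 1 array at a time gave 53 to 111 calls: 53 without the untreated SOCS1-/-IFNg-/- array, 54 without the untreated IFNg-/- array and 55 without the IFNg-/- 12 h array.

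Promoters of genes that rose are shown first, as sequences in which GAS and ISRE letters can be sought. RefSeq sequence of build GRCm38.p6 was at hand for 60 of the 74 genes that rose, for 9 of the 10 that fell and for 6576 of the 8251 genes measured. The letters searched were GAAA, any 2 bases and GAAA again (ISRE), TTCNNNGAA (GAS), TTGCNNAA (C/EBP, a factor of acute phase promoters), and GGGA, any base and TTTCC (NF-kB). They were sought on both strands of the 250 bases before the gene's start. ISRE letters were found in 15 of the 60 genes that rose (25.0%) and in 3.39% of all genes searched. GAS letters were found in 8 (13.3% against 7.39%), C/EBP letters in 13 (21.7% against 10.4%) and NF-kB letters in 0 (against 0.547%). Among the 9 genes that fell, 0 held ISRE letters, 1 GAS letters, 2 C/EBP letters and 1 NF-kB letters. Cxcl9, the gene with the largest rise, held none of these letters in its window. A match is a stretch of letters, not a shown binding site, and no binding was measured here.

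The first set shows 3 of the GTPase genes with ISRE letters and, in Igtp and Gbp7, GAS letters beside them. Gbp3, Gbp2b, Irgm1 and Irgm2 also hold ISRE letters, and Irgm2 GAS letters, and they are not printed. Capitals mark the matches, and each run holds the 250 bases before the start, 5′ to 3′ on the gene's own strand. Gbp2 lies at chr3:142620413-142620662 (plus strand), Igtp at chr11:58199306-58199555 (plus) and Gbp7 at chr3:142530086-142530335 (plus).
Gbp2: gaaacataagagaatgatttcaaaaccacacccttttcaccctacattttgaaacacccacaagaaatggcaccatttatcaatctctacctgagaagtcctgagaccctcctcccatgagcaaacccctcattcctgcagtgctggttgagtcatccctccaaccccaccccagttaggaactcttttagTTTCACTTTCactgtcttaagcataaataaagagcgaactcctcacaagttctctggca
Igtp: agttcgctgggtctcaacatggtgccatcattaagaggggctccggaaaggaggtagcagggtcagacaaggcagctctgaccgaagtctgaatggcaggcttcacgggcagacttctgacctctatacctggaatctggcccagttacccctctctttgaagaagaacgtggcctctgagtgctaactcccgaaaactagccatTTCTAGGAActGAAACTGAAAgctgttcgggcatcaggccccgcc
Gbp7: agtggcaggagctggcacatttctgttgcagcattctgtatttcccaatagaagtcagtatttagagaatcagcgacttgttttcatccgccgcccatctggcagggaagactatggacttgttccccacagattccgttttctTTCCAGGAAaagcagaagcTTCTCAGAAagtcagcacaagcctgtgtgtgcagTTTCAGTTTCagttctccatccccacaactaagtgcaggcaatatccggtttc
In Gbp2 the ISRE letters begin 59 bases before the start. In Igtp the match nearest to the start begins 34 bases before it. All 3 genes rose at 12 and 16 h.

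The second set shows antigen processing genes and the antiviral gene Isg15. Psmb8 lies at chr17:34197945-34198194 (plus strand) and holds GAS letters 97 bases before its start. Isg15 lies at chr4:156200819-156201068 (minus strand) and holds 3 ISRE matches that overlap each other, the nearest 66 bases before the start.
Psmb8: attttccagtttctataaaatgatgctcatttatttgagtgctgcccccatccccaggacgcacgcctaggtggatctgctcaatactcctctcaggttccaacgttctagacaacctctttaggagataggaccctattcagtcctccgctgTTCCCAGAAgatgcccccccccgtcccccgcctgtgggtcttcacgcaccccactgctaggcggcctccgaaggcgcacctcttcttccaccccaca
Isg15: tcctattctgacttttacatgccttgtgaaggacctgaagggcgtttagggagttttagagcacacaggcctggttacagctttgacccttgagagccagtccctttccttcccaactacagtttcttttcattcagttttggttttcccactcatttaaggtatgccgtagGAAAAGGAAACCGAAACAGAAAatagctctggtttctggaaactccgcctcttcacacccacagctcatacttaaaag
Psmb9 and Tap1, which lie head to head and rose together, share the 225 bases between their starts at chr17:34187331-34187555, printed on the strand of Tap1. None of the 4 letter patterns was found in it, so nothing is in capitals.
Psmb9 and Tap1: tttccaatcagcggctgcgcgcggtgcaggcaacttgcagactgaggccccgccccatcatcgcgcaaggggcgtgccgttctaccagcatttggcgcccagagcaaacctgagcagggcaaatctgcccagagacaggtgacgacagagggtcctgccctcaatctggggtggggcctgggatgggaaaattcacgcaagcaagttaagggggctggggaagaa

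The third set shows Lcn2 and Saa2, the acute phase genes with the largest rises, with C/EBP letters in capitals. Other acute phase genes that rose differ and are not printed. Saa3 holds ISRE and C/EBP letters, Apcs and Itih4 GAS letters, and Orm2 and Hpx C/EBP letters alone. Serpina3n holds none of these. Lcn2 lies at chr2:32387740-32387989 (minus strand) and Saa2 at chr7:46751583-46751832 (plus strand). The marked letters begin 216 and 183 bases before the start, and neither gene holds ISRE or GAS letters in this window.
Lcn2: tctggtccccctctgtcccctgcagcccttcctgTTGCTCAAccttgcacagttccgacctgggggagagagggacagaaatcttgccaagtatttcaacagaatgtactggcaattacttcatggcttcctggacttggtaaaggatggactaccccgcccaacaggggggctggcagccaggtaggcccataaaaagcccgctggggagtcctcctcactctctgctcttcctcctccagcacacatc
Saa2: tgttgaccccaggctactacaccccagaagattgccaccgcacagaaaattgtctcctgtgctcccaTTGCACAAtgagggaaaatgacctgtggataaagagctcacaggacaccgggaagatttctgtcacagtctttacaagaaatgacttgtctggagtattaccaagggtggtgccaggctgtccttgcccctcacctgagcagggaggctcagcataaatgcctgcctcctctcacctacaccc

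Cxcl9, a chemokine that draws T cells through the receptor CXCR3, had the largest difference of all genes called. In IFNg-/- it was 4.16 untreated, 4.46 at 4 h of PBS, 10.99 at 12 h and 10.53 at 16 h. Livers of SOCS1-/-IFNg-/- stood at 4.31, 4.33, 11.48 and 11.41. The groups were far apart, and the treated arrays lay within 1 log2 unit of each other. The difference was 6.79 ± 0.15 (SE, 4 arrays against 4; limma adjusted p = 1.63e-08), a mean level 111-fold above controls. It was called in all 8 fits that left out 1 array, with differences from 6.71 to 6.95.

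Among the chemokines Cxcl9 alone was called. Of 23 measured, 1 rose (Cxcl9) and 0 fell, beside 0.897% and 0.121% of all genes. Their median difference was -0.03 beside -0.02 over all genes. Cxcl10, a second CXCR3 ligand, was 4.14 and 3.53 in IFNg-/- livers and 4.81 and 4.54 in SOCS1-/-IFNg-/- at 12 and 16 h, against 3.66 to 3.78 in controls (0.54 ± 0.18, limma adjusted p = 0.265). Ccl2, which attracts monocytes, was 4.65 and 3.83 in IFNg-/- livers and 5.42 and 5.21 in SOCS1-/-IFNg-/-, against 3.54 to 3.92 (1.00 ± 0.22, adjusted p = 0.0939). Neither passed the threshold, and within SOCS1-/-IFNg-/- Ccl2 stood 1.49 and Cxcl10 0.96 above controls, against 0.51 and 0.13 in IFNg-/-.

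**Figure D1:**
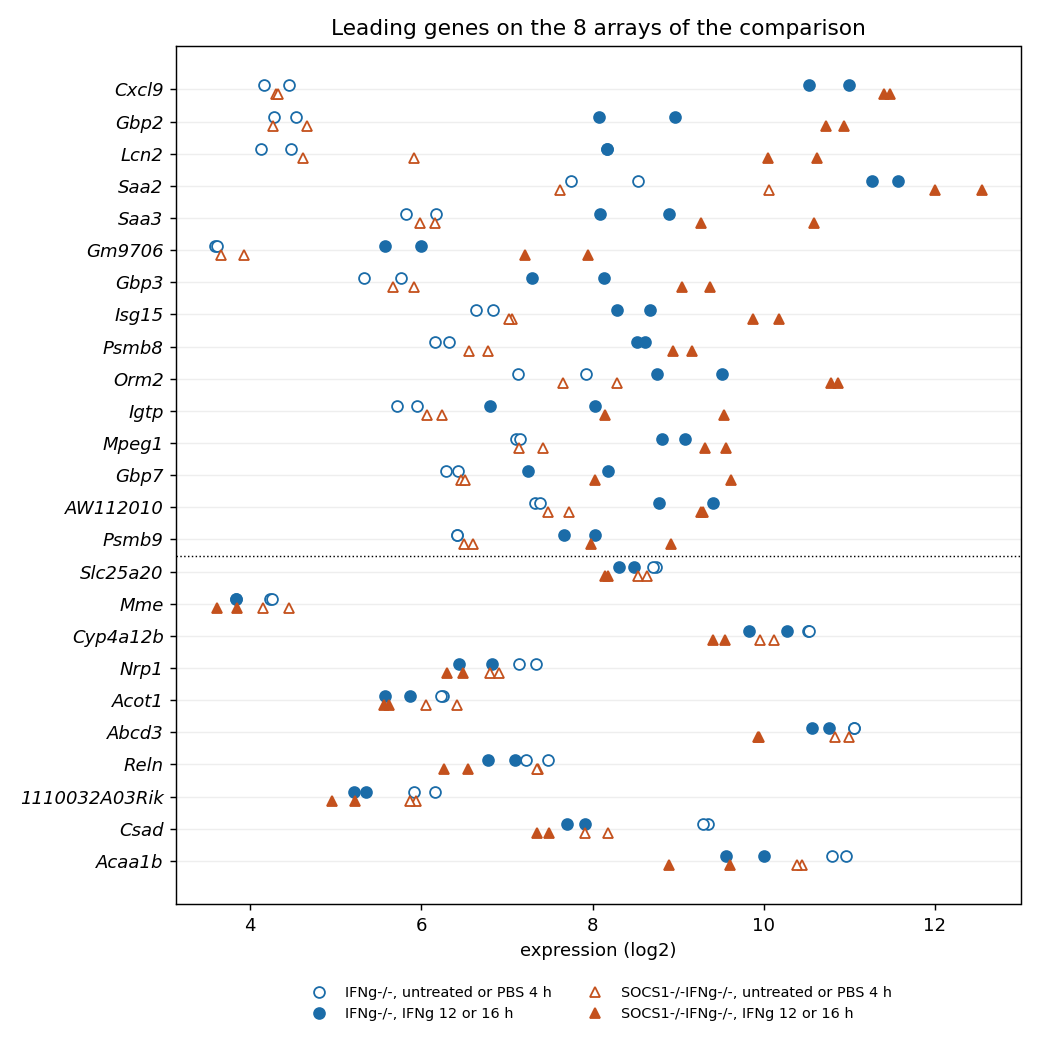
Log2 expression (x axis) of the 15 genes with the largest rises and the 10 genes that fell on the 8 arrays compared, 1 point per array, open for controls and filled for 12 or 16 h of interferon-gamma. The filled points of Cxcl9 lie between 10.53 and 11.48 and its open points between 4.16 and 4.46, whereas those of Slc25a20 lie close together.

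The interferon-induced GTPases, which attack the membranes around microbes inside cells, stayed up at 12 and 16 h. Of 9 measured, 7 rose and 0 fell, with a median difference of 1.74, and in 8 of 9 the treated arrays lay above every control. Of all genes, 0.897% were called higher and 3.48% had every treated array above every control. Gbp2, a guanylate-binding protein, was 4.27 untreated, 4.53 at 4 h of PBS, 8.96 at 12 h and 8.08 at 16 h in IFNg-/-. On the SOCS1-/-IFNg-/- arrays it was 4.66, 4.27, 10.94 and 10.73. All 4 treated arrays were high, those of SOCS1-/-IFNg-/- highest, and the difference was 5.24 ± 0.40 (limma adjusted p = 0.000264).

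The rises spanned both GTPase families on the list. Among the guanylate-binding proteins, Gbp3 rose by 2.79 ± 0.27, Gbp7 by 1.85 ± 0.34 and Gbp2b by 0.85 ± 0.12. Among the immunity-related GTPases, Igtp rose by 2.13 ± 0.36, Irgm1 by 1.24 ± 0.23 and Irgm2 by 1.01 ± 0.17 (limma adjusted p between 0.00119 and 0.0437 for these 6). The regulatory protein Irgm1 was 7.06 and 6.29 at 12 and 16 h in IFNg-/- livers and 7.79 and 6.90 in SOCS1-/-IFNg-/-, with the 12 h array above the 16 h array in both, against 5.45 to 6.07 in controls. Ifi47 differed by 1.74 ± 0.37 (adjusted p = 0.0754) and Iigp1 by 1.09 ± 0.27 (adjusted p = 0.119), and neither was called. Irgm1 and Irgm2 lost the call in 6 of the 8 fits with 1 array removed, Gbp7 in 5 and Igtp in 4. Gbp2, Gbp3 and Gbp2b lost theirs in 0 of 8.

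The immunoproteasome, the form of the proteasome that cuts peptides for MHC class I, rose as a whole. All 4 measured members of that list rose, beside 0.897% of all genes, with a median of 1.58. Psmb8, the subunit LMP7, was 6.16 untreated, 6.32 at 4 h of PBS, 8.61 at 12 h and 8.52 at 16 h in IFNg-/-. The SOCS1-/-IFNg-/- values were 6.56, 6.77, 8.94 and 9.16. The treated arrays were above all controls by more than the spread within either group, and the difference was 2.36 ± 0.08 (limma adjusted p = 4.59e-07). Psmb9, the subunit LMP2, rose by 1.66 ± 0.19, Psmb10, the third catalytic subunit, by 1.49 ± 0.09 and Psme1, a subunit of the activator PA28, by 1.01 ± 0.10. A second probe set of Psme1, with a mean log2 value of 3.09, differed by -0.07.

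Of the 14 core subunits of the standard proteasome, 0 were called. All 14 lay above their control means, beside 3473 of all 8251 genes, with a median of 0.26. In 2 the treated arrays lay above every control, beside 3.48% of all genes. Psma1 had the largest difference (0.47 ± 0.11, limma adjusted p = 0.119).

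Other steps of MHC class I presentation rose in part. Of 13 measured genes 3 rose and 0 fell, beside 0.897% of all genes that rose, with a median of 0.30. Tap1 and Tap2, which form the transporter that carries peptides into the endoplasmic reticulum, rose by 0.98 ± 0.14 and 0.71 ± 0.12, and Tapbp, the tapasin that loads them, by 0.54 ± 0.09 (limma adjusted p = 0.00906, 0.0285 and 0.0276). The calls of Tap2 and Tapbp were lost in 5 of the 8 fits with 1 array removed. A second probe set of Tap1, with a lower mean, differed by 0.03. Tapbp has 2 further probe sets of similar brightness, which differed by 1.39 ± 0.15 (limma adjusted p = 0.00219 over all probe sets) and 0.27 ± 0.08 (adjusted p = 0.224), so that its size is uncertain. The class I heavy chains H2-K1 (0.32 ± 0.08) and H2-D1 (0.30 ± 0.08) and the light chain B2m (0.18 ± 0.09) were not called (adjusted p = 0.128, 0.138 and 0.444). Their levels were high in every array, with B2m between 11.46 and 11.71 in controls and between 11.54 and 11.89 at 12 and 16 h.

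Genes of MHC class II presentation, which shows peptides to helper T cells, rose in part. Of 15 measured, 4 rose and 0 fell, beside 0.897% of all genes that rose, with a median of 0.34. Cd74, the invariant chain, was 7.01 untreated, 7.02 at 4 h of PBS, 8.83 at 12 h and 8.02 at 16 h in IFNg-/-. Livers of SOCS1-/-IFNg-/- stood at 7.82, 7.66, 9.08 and 8.71. Its groups did not overlap, though the IFNg-/- 16 h array stood only just above the untreated SOCS1-/-IFNg-/- array, and within each genotype the gap was wider (1.28 ± 0.16, limma adjusted p = 0.00459). H2-Aa, a class II chain, rose by 0.71 ± 0.11 with groups that overlapped, the protease Ctss by 0.69 ± 0.12 and the peptide editor H2-DMa by 0.55 ± 0.07. With 1 array removed, Ctss lost its call in 6 of 8 fits, H2-Aa in 4, and Cd74 and H2-DMa in 0. A second probe set of H2-DMa, about as bright, differed by 0.15 ± 0.07 (limma adjusted p = 0.469 over all probe sets). Ciita, the master regulator of these genes, stood between 5.71 and 6.12 at 12 and 16 h and between 5.76 and 6.05 in controls (0.01 ± 0.09, adjusted p = 0.986).

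Beside the class II rises, no gene on the marker lists of macrophages, B cells or dendritic cells was called. These lists do not hold every gene that such cells express. In whole liver, fewer cells of a type and less RNA per cell cannot be told apart. Of 8 Kupffer cell and macrophage markers 0 were called and 7 lay below their control means, and their summed linear level was 517 to 735 at 12 and 16 h against 748 to 909 in controls. Cd5l, a protein secreted by macrophages, was 6.46 and 6.81 in IFNg-/- livers and 5.69 and 5.29 in SOCS1-/-IFNg-/-, against 6.91 to 7.44 (-1.03 ± 0.27, limma adjusted p = 0.143). Clec4f, a Kupffer cell lectin, differed by -0.75 ± 0.16 (adjusted p = 0.0859). On the PBS 12 h arrays (IFNg-/- first) Clec4f was 7.84 and 7.79 and Cd5l 7.31 and 6.85. The summed macrophage level there was 727 to 798. In IFNg-/- livers Clec4f was 7.91 and 7.79 at 12 and 16 h, and in SOCS1-/-IFNg-/- 7.31 and 7.08. Of 8 B cell and plasma cell markers 0 lay above controls (summed level 379 to 385 against 410 to 444), and of 6 dendritic cell markers 2 did (296 to 327 against 287 to 327). The part of these cells in the class II rises was not tested.

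Mpeg1, a pore-forming protein of macrophages, rose. It was 7.11 and 7.15 in the IFNg-/- controls, 9.08 at 12 h and 8.81 at 16 h. On the SOCS1-/-IFNg-/- arrays it was 7.42, 7.14, 9.56 and 9.31. The groups were well apart (1.98 ± 0.11, limma adjusted p = 2.77e-05), and the call held in all 8 fits that left out an array. A second, dim probe set of Mpeg1, with a mean log2 value of 2.16, differed by -0.07.

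Antiviral genes shared with type I interferon were raised in part. Of 22 measured, 4 rose and 0 fell, beside 0.897% of all genes that rose. The median was 0.47, and in 10 the treated arrays lay above every control, beside 3.48% of all genes. Isg15, a ubiquitin-like modifier, was 6.64 and 6.84 in the IFNg-/- controls, 8.67 at 12 h and 8.28 at 16 h. The SOCS1-/-IFNg-/- values were 7.06, 7.03, 10.18 and 9.87. The 2 SOCS1-/-IFNg-/- arrays stood above the 2 IFNg-/- arrays, and the difference was 2.36 ± 0.23 (limma adjusted p = 0.00119).

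Gm9706, a close relative of Isg15 whose probes may read Isg15 as well, rose by 2.99 ± 0.30. Ifit3 and Ifit1, which bind viral RNA, rose by 1.53 ± 0.20 and 1.27 ± 0.21, and the DNA sensor family member Ifi204 by 0.90 ± 0.10. Usp18, which removes ISG15 from proteins and dampens interferon signalling, rose by 0.92 ± 0.12 and Uba7, the enzyme that activates ISG15, by 0.95 ± 0.11. These 6 genes had limma adjusted p values between 0.00154 and 0.0196. With 1 array removed, Ifit1 lost its call in 5 of 8 fits, and Gm9706, Ifit3, Ifi204, Usp18 and Uba7 in 0. Rsad2 (0.98 ± 0.21, adjusted p = 0.0824) and Mx1 (0.59 ± 0.18, adjusted p = 0.229), which block the growth of viruses, were not called.

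Among the genes that carry the signal itself 1 was called. Of 20 measured receptor, JAK, STAT and IRF genes 1 rose and 0 fell, beside 0.897% of all genes that rose. Their median was 0.16. The gene that rose was Irf7, a regulator of interferon genes, by 1.28 ± 0.15 (limma adjusted p = 0.00288). Irf1, an early factor, was 7.71 and 7.33 in IFNg-/- livers and 7.64 and 7.51 in SOCS1-/-IFNg-/- at 12 and 16 h, against 6.47 to 7.38 in controls, so that the groups overlapped (0.60 ± 0.17, adjusted p = 0.186). Of 13 feedback inhibitors, 1 rose (Usp18), beside the same share of all genes. Socs3, a SOCS family member that restrains interleukin-6 signalling, differed by -0.12 ± 0.23.

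**Figure D2:**
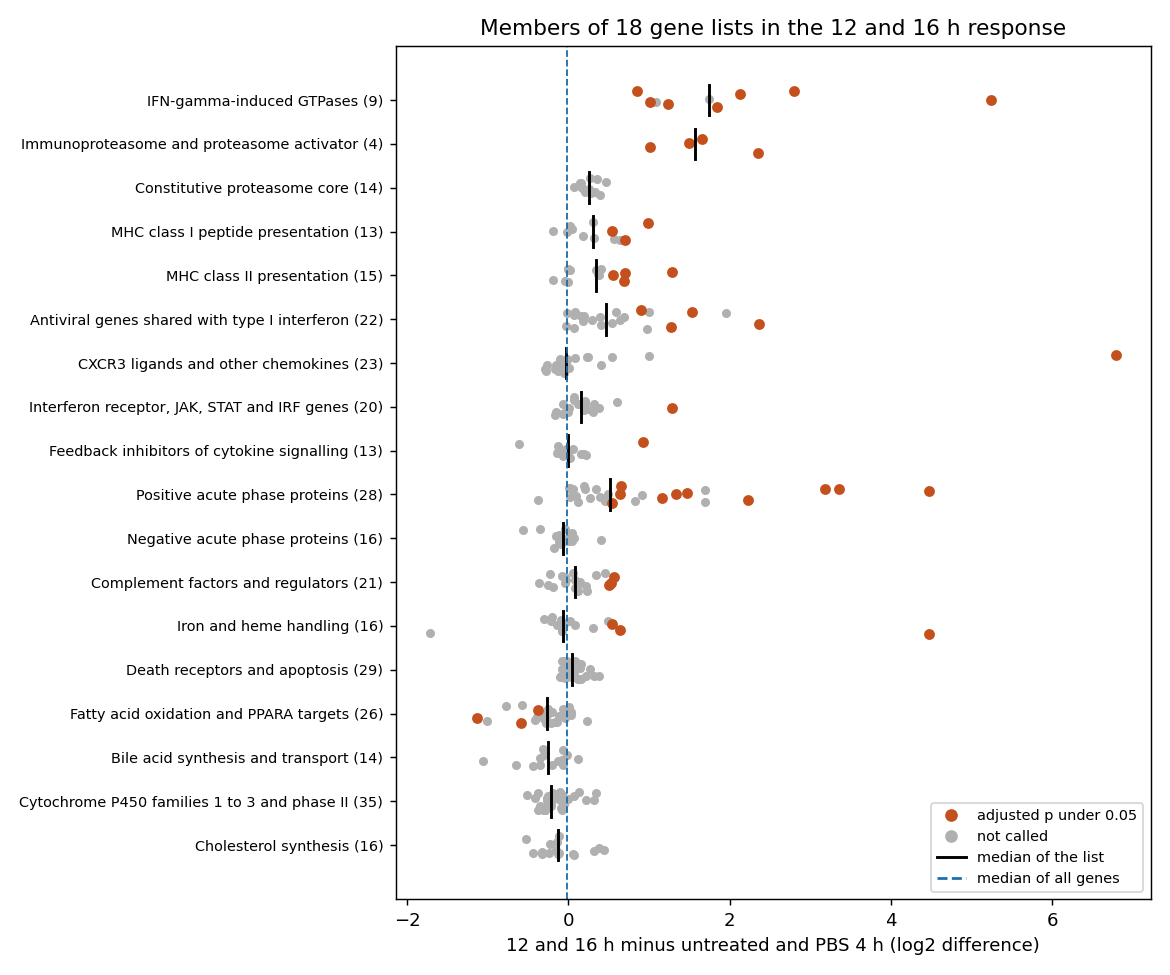
Log2 difference at 12 and 16 h against untreated and PBS 4 h (x axis) for each measured member of 18 gene lists, with the number measured in brackets; orange points passed an adjusted p of 0.05, black bars are list medians and the dashed line is the median of all genes, -0.02. All 4 immunoproteasome points are orange, and all 14 points of the standard proteasome are grey and above 0.

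Acute phase proteins, which hepatocytes secrete in inflammation, formed the other large block. Of 28 measured, 10 rose and 0 fell, beside 0.897% of all genes that rose. Their median was 0.52, and 27 lay above their control means. Lcn2, a lipocalin that keeps iron from bacteria, was 4.13 untreated, 4.48 at 4 h of PBS and 8.17 at both 12 and 16 h in IFNg-/-. Livers of SOCS1-/-IFNg-/- stood at 4.62, 5.91, 10.05 and 10.62. All treated arrays were above all controls, and the difference was 4.47 ± 0.31 (limma adjusted p = 0.00015). A second probe set of Lcn2, with a mean log2 value of 5.98 against 6.59, differed by only 0.17 ± 0.08 (limma adjusted p = 0.433 over all probe sets). Lcn2 is also a neutrophil gene, and 0 of 12 neutrophil markers were called, 9 of the 12 lay below the median gene on all 8 arrays, and their summed linear level was 711 to 824 at 12 and 16 h against 743 to 837 in controls. Among them S100a8 was 3.93 and 3.92 in IFNg-/- livers and 5.69 and 4.79 in SOCS1-/-IFNg-/-, against 3.85 to 4.17 in controls.

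The serum amyloid genes rose strongly from controls that were themselves uneven. Saa2 was 7.75 untreated, 8.54 at 4 h of PBS, 11.57 at 12 h and 11.27 at 16 h in IFNg-/-. On the SOCS1-/-IFNg-/- arrays it was 7.62, 10.06, 12.00 and 12.55. The PBS 4 h array was above the untreated array in both genotypes, and the difference was 3.36 ± 0.43 (limma adjusted p = 0.00498) against both kinds of control and 2.55 against PBS 4 h alone. Saa3 rose by 3.18 ± 0.34, and the Saa2 probe set may read other members of this near-identical family.

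The rest of the acute phase rises were smaller. Orm2, an acid glycoprotein, rose by 2.23 ± 0.29, Apcs, the serum amyloid P component, by 1.47 ± 0.24, the protease inhibitor Serpina3n by 1.34 ± 0.19 and Lbp, which binds lipopolysaccharide, by 1.16 ± 0.13. Itih4 rose by 0.65 ± 0.10, and Hp and Hpx, which bind free haemoglobin and haem, by 0.64 ± 0.07 and 0.54 ± 0.08 (limma adjusted p between 0.00236 and 0.018 for Saa3 and these 7). The Apcs groups overlapped, with 9.23 on the SOCS1-/-IFNg-/- PBS 4 h array against 8.85 and 9.22 at 12 and 16 h in IFNg-/-. With 1 array removed, Apcs and Itih4 lost their calls in 3 of 8 fits and Hpx in 2. Orm2, Serpina3n, Lbp and Hp lost theirs in 0. The metallothioneins, which bind zinc, were uneven in controls and were not called. Mt2 was 9.44 and 9.02 in IFNg-/- livers and 10.70 and 11.46 in SOCS1-/-IFNg-/- at 12 and 16 h, against 7.30, 8.03, 7.43 and 11.10 in controls, where the high value is the SOCS1-/-IFNg-/- PBS 4 h array (1.69 ± 0.63, adjusted p = 0.304).

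Hamp, the iron hormone hepcidin, is on the list of iron and haem handling. At 12 and 16 h it was 9.52 and 10.46 in IFNg-/- livers and 6.76 and 8.70 in SOCS1-/-IFNg-/-, against 10.18 to 10.86 in controls. The 12 h array was the lower in both genotypes, and the difference of -1.71 ± 0.49 was not called (limma adjusted p = 0.186). Of the 16 genes on that list, 3 rose (Lcn2, Hp and Hpx) and 0 fell, beside 0.897% of all genes that rose. Of 16 proteins that usually drop in the acute phase, 0 were called (median -0.06). Of 21 complement genes 3 rose, beside the same share of all genes. These were the C1 inhibitor Serping1 (0.56 ± 0.07), C2 (0.52 ± 0.10) and the lectin Mbl2 (0.50 ± 0.09). The call of C2 was lost in 7 of the 8 fits with 1 array removed and that of Mbl2 in 8 of 8.

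Other lists of defence and damage gave few calls. Xdh, the xanthine oxidoreductase that can form oxidants, rose by 1.52 ± 0.19 (limma adjusted p = 0.0035). It was the 1 gene called among 14 of nitric oxide, tryptophan and oxidant enzymes, beside 1.02% of all genes. Of 29 death receptor and apoptosis genes 0 were called, with Daxx at 0.38 ± 0.09 (adjusted p = 0.101), Tnfrsf1a at 0.32 ± 0.16 and Fas at 0.26 ± 0.16. Genes that rose outside the lists included AW112010, by 1.71 ± 0.12, and the surface protein gene Ly6e, by 1.26 ± 0.12. The second probe set of Ly6e differed by -0.18.

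Genes of fatty acid breakdown made up 3 of the 10 falls. Of 26 measured genes of fatty acid oxidation and targets of the receptor PPARA, 3 fell and 0 rose, beside 0.121% of all genes that fell. The median was -0.26 and 4 lay above their control means. Acaa1b, a peroxisomal thiolase, was 10.96 untreated, 10.80 at 4 h of PBS, 9.56 at 12 h and 10.01 at 16 h in IFNg-/-. The SOCS1-/-IFNg-/- values were 10.44, 10.39, 9.61 and 8.90. All treated arrays lay below all controls, and the level fell by 1.13 ± 0.15 (limma adjusted p = 0.00542), to 2.19-fold below controls. The PBS 12 h arrays, not among these controls, stood at 10.17 and 9.97 (IFNg-/- first). Against them Acaa1b differed by -0.55 ± 0.21 and was not called (limma adjusted p = 0.689). A second probe set of Acaa1b differed by -0.73 and also passed. Acot1, an acyl-CoA thioesterase, differed by -0.58 ± 0.10 and Slc25a20, the carnitine carrier of mitochondria, by -0.38 ± 0.07 (adjusted p = 0.0226 and 0.0293). These 2 calls were lost in 5 and 7 of 8 fits that left out an array, and that of Acaa1b in 0. On the PBS 12 h arrays Acot1 and Slc25a20 differed from the control mean by -0.006 and -0.05.

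The other 7 genes that fell are on none of the lists. Csad, an enzyme of taurine synthesis, was 9.35 and 9.29 in the IFNg-/- controls and 7.71 and 7.91 at 12 and 16 h. Livers of SOCS1-/-IFNg-/- stood at 7.91, 8.18, 7.35 and 7.49, so that the genotypes differed before treatment and the groups met at 7.91, with both genotypes lower after treatment (-1.07 ± 0.16, limma adjusted p = 0.0146). Abcd3, a peroxisomal transporter of fatty acids, differed by -0.68 ± 0.12, Cyp4a12b, a fatty acid hydroxylase, by -0.52 ± 0.10 and Reln, a marker of stellate cells, by -0.69 ± 0.13. A second probe set of Reln differed by 0.09. The remaining genes were 1110032A03Rik (-0.78 ± 0.09), the co-receptor Nrp1 (-0.53 ± 0.10) and the peptidase Mme (-0.49 ± 0.09). With 1 array removed, Nrp1 and Cyp4a12b lost their calls in 7 of 8 fits, Mme and Reln in 6 and Abcd3 in 5. Csad lost its call in 1 and 1110032A03Rik in 0. Against the PBS 4 h arrays alone none of the 10 falls was called, with Acaa1b at -1.08 and adjusted p = 0.156. On the PBS 12 h arrays 1110032A03Rik, Cyp4a12b and Csad differed from the control mean by -0.55, -0.48 and -0.39. Reln, Abcd3, Mme and Nrp1 differed there by -0.30, -0.28, -0.13 and -0.04. Cyp4a12b stood at -0.45 and -0.59 after 12 and 16 h of interferon-gamma, close to its PBS 12 h value.

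Other metabolic lists had 0 members called in either direction. Medians were -0.26 for 14 genes of bile acid synthesis and transport, -0.21 for 35 cytochrome P450 and phase II genes, -0.13 for 16 of cholesterol synthesis and -0.04 for 17 of glucose production, beside -0.02 over all genes. Of the bile acid genes 1 of 14 lay above its control mean. Cyp7a1, the rate-limiting enzyme of bile acid synthesis, was 6.23 and 6.98 in IFNg-/- livers and 5.03 and 4.92 in SOCS1-/-IFNg-/- at 12 and 16 h, against controls of 6.63, 5.54, 7.04 and 8.20 (-1.06 ± 0.59, limma adjusted p = 0.485). Cyp8b1, a further enzyme of that pathway, lay below controls on all treated arrays and was not called (-0.65 ± 0.15, adjusted p = 0.0981). The clock gene Nr1d1 was 5.68, 7.58, 5.65 and 7.30 on the untreated, PBS 4 h, 12 h and 16 h arrays of IFNg-/-, and 6.48, 7.57, 5.48 and 5.96 on those of SOCS1-/-IFNg-/-. Its part in the metabolic differences was not tested.

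The response was called different between the genotypes in 4 genes (0.0485% of those tested), 1 higher (0.0121%) and 3 lower (0.0364%) in SOCS1-/-IFNg-/- than in IFNg-/-. The test was limma's interaction term, the 12 and 16 h difference in SOCS1-/-IFNg-/- minus that in IFNg-/-, and 656 genes passed a p of 0.05 before adjustment, with 413 by chance. Car3, a carbonic anhydrase abundant in liver, was 11.42 and 11.37 in the IFNg-/- controls and 11.02 and 11.00 at 12 and 16 h. On the SOCS1-/-IFNg-/- arrays it was 11.28 and 11.44 in controls and 9.08 at both times. It was low only on those 2 arrays among the 8, with an interaction of -1.89 ± 0.13 (adjusted p = 0.00113). On the SOCS1-/-IFNg-/- arrays of 24 and 48 h it was 10.57 and 10.82. It was called in all 8 fits that left out an array.

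Hsd3b6 and Hsd3b3, steroid dehydrogenases of one gene family whose probes may read each other's transcripts, also moved apart. Hsd3b6 went from 6.99 and 6.76 to 7.45 and 7.31 in IFNg-/- and from 7.43 and 7.38 to 6.32 and 6.38 in SOCS1-/-IFNg-/-. The response was upward in one genotype and downward in the other, with an interaction of -1.56 ± 0.15 (limma adjusted p = 0.00993). That of Hsd3b3 was -1.29 ± 0.14 (adjusted p = 0.0151). Creld2, a chaperone of the endoplasmic reticulum, went from 7.17 and 7.57 to 6.74 and 5.96 in IFNg-/- and from 6.43 and 6.13 to 7.81 and 7.98 in SOCS1-/-IFNg-/- (2.63 ± 0.33, adjusted p = 0.0444). The calls of Creld2, Hsd3b3 and Hsd3b6 were lost in 6, 5 and 2 of the 8 fits with an array left out. Creld2, the 1 higher gene, also lost its call in all 6 other settings run, with adjusted p from 0.0542 to 0.209 (limma), whereas Car3 kept its call in all 6. With PBS 12 h among the controls Hsd3b6 and Hsd3b3 lost theirs (adjusted p = 0.0967 and 0.148). Without the SOCS1-/-IFNg-/- PBS 4 h array 1 gene was called, and without the untreated array of that genotype 2.

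None of the 84 called genes had a called difference between the genotypes. They were chosen on the difference averaged over both genotypes, which favours genes that move alike in both, so the values by genotype are a description. Among the 74 that rose, the value was larger in SOCS1-/-IFNg-/- in 60 (81.1%), beside 57.4% over all genes, and the medians were 1.03 in SOCS1-/-IFNg-/- and 0.76 in IFNg-/-. Gbp2 rose by 6.37 in SOCS1-/-IFNg-/- and by 4.12 in IFNg-/- (interaction 2.25 ± 0.36, limma adjusted p = 0.13). Cxcl9 rose by 7.13 and 6.46 (adjusted p = 0.488) and Lcn2 by 5.07 and 3.86 (adjusted p = 0.597). Within IFNg-/- 16 genes were called and within SOCS1-/-IFNg-/- 176. Each contrast sets 2 arrays against 2 and takes its spread from the 8 arrays of both genotypes. The interaction is the test of the difference.

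**Figure D3:**
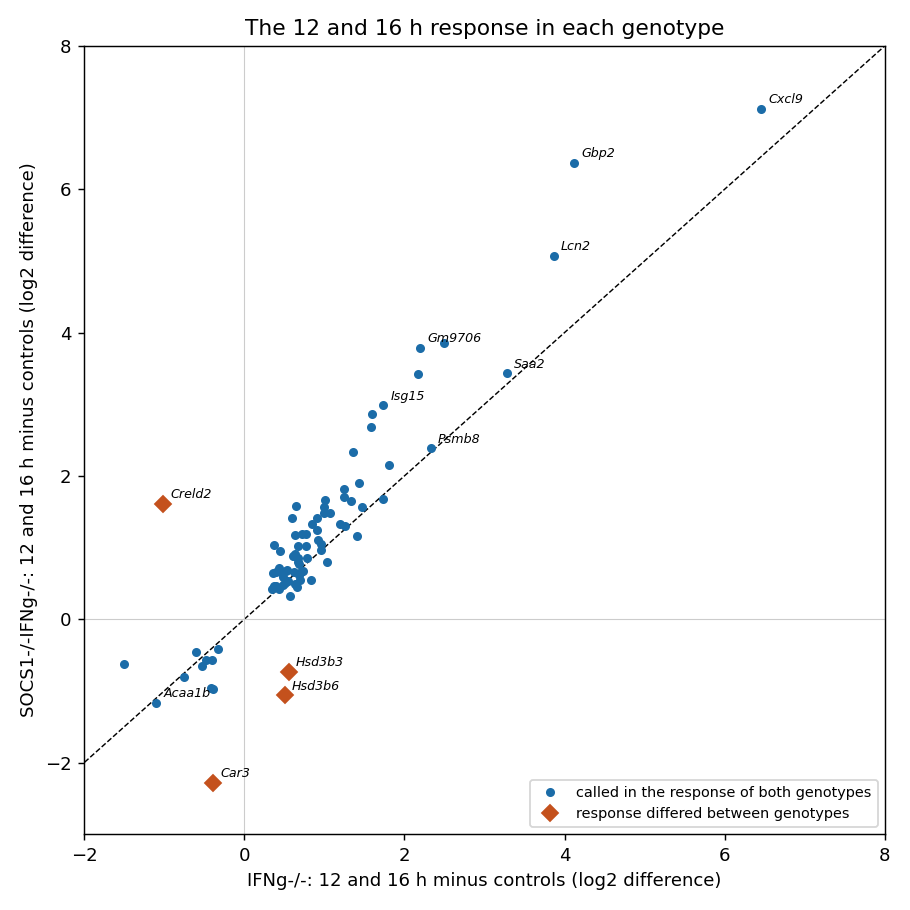
Log2 difference at 12 and 16 h in IFNg-/- (x axis) and in SOCS1-/-IFNg-/- (y axis), each from 2 treated and 2 control arrays, for the 84 genes called over both genotypes (blue) and the 4 with a called genotype difference (orange); the dashed line marks equal values. Gbp2 lies above the line at 4.12 and 6.37, and Car3 lies below it at -0.39 and -2.28.

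The 2 times that were joined were not told apart by the test. Between 16 and 12 h limma called 0 genes (0%), with 352 past a p of 0.05 before adjustment (413 by chance), and with array weights 0, with 558. The smallest adjusted p was 1. Gbp7 was 8.18 after 12 h and 7.24 after 16 h in IFNg-/- livers and 9.62 and 8.03 in SOCS1-/-IFNg-/-, without a call. The median of the 9 GTPases was -0.83 for this difference, beside 0.01 over all genes.

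Against the livers of 1 and 2 h, the 12 and 16 h livers had more transcripts of 6 of 28 acute phase genes and 3 of 4 immunoproteasome genes. This comparison uses no control array. limma called 196 genes (2.38%), 134 higher (1.62%) and 62 lower (0.751%). Lcn2 was 3.80 and 6.40 at 1 and 2 h in IFNg-/- livers and 4.84 and 7.23 in SOCS1-/-IFNg-/-, below every 12 and 16 h value, and the difference was 3.68 ± 0.64 (adjusted p = 0.0302). Saa3 was higher by 2.80 ± 0.42, Orm2 by 2.58 ± 0.32, Psmb8 by 1.80 and Psmb10 by 1.47 (adjusted p between 0.0042 and 0.0182). Of 28 acute phase genes 6 were higher and 1 lower, of 15 MHC class II genes 6 were higher, and of 13 MHC class I genes 4 were higher. The call of Lcn2 was lost in 6 of the 8 fits with 1 array removed, and leaving out any 1 of the 8 arrays lowered the count of called genes, to between 55 (without the SOCS1-/-IFNg-/- 2 h array) and 128 (without the IFNg-/- 16 h array).

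The largest differences among the 62 lower genes were these. Egr1, an immediate early factor, was 9.28 and 9.53 at 1 and 2 h in IFNg-/- livers and 7.12 and 6.32 at 12 and 16 h. The SOCS1-/-IFNg-/- values were 9.88 and 9.86, then 6.69 and 6.56, a difference of -2.96 ± 0.18 (limma adjusted p = 0.000193). Cxcl1, a neutrophil chemokine, differed by -2.73 ± 0.42, Irf1 by -2.66 ± 0.16, the amino acid transporter Slc38a2 by -1.91 and Gdap10 by -1.87. Cxcl1 stayed at 8.91 and 9.11 on the SOCS1-/-IFNg-/- arrays of 12 and 16 h, against 7.04 and 5.90 in IFNg-/-, and was 9.10 on the SOCS1-/-IFNg-/- PBS 4 h array. The GTPases had a median of -0.77 in this comparison, with 1 of 9 higher (Gbp2b, 0.72) and 0 lower.

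Against the livers of 24 and 48 h, 7 GTPases and 4 antiviral genes stood higher. limma called 105 genes (1.27%), 72 higher (0.873%) and 33 lower (0.4%), and again no control array entered. Gbp2 was 5.44 and 4.57 at 24 and 48 h in IFNg-/- livers and 7.64 and 4.54 in SOCS1-/-IFNg-/-, and was higher at 12 and 16 h by 4.13 ± 0.58 (adjusted p = 0.0184). Gm9706 was higher by 2.88, Gbp3 by 2.44, Isg15 by 2.40 and Igtp by 1.85. Of 9 GTPases 7 were higher, of 22 antiviral genes 4 and of 28 acute phase genes 3. Lcn2 was still 9.06 and 10.20 at 24 h (IFNg-/- first) and Saa2 11.79 and 12.15, near their 12 and 16 h levels, and both were lower at 48 h.

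Genes that stood lower at 12 and 16 h than at 24 and 48 h were led by the macrophage protein gene Cd5l, by -1.45 (limma adjusted p = 0.023). Csad differed by -1.15, the carboxylesterase Ces1g by -1.02, G6pc, the last enzyme of glucose release, by -0.90 and the retinol dehydrogenase Rdh16 by -0.81. This comparison moved most when an array was left out: 0 genes were called without the IFNg-/- 48 h array (limma; 1257 at an unadjusted p under 0.05), 2 without either SOCS1-/-IFNg-/- array of 12 or 16 h, 22 without the IFNg-/- 12 h array, 37 and 55 without the SOCS1-/-IFNg-/- arrays of 48 and 24 h, and 170 without the IFNg-/- 16 h array. Against the 24 h arrays alone 10 were called.

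**Figure D4:**
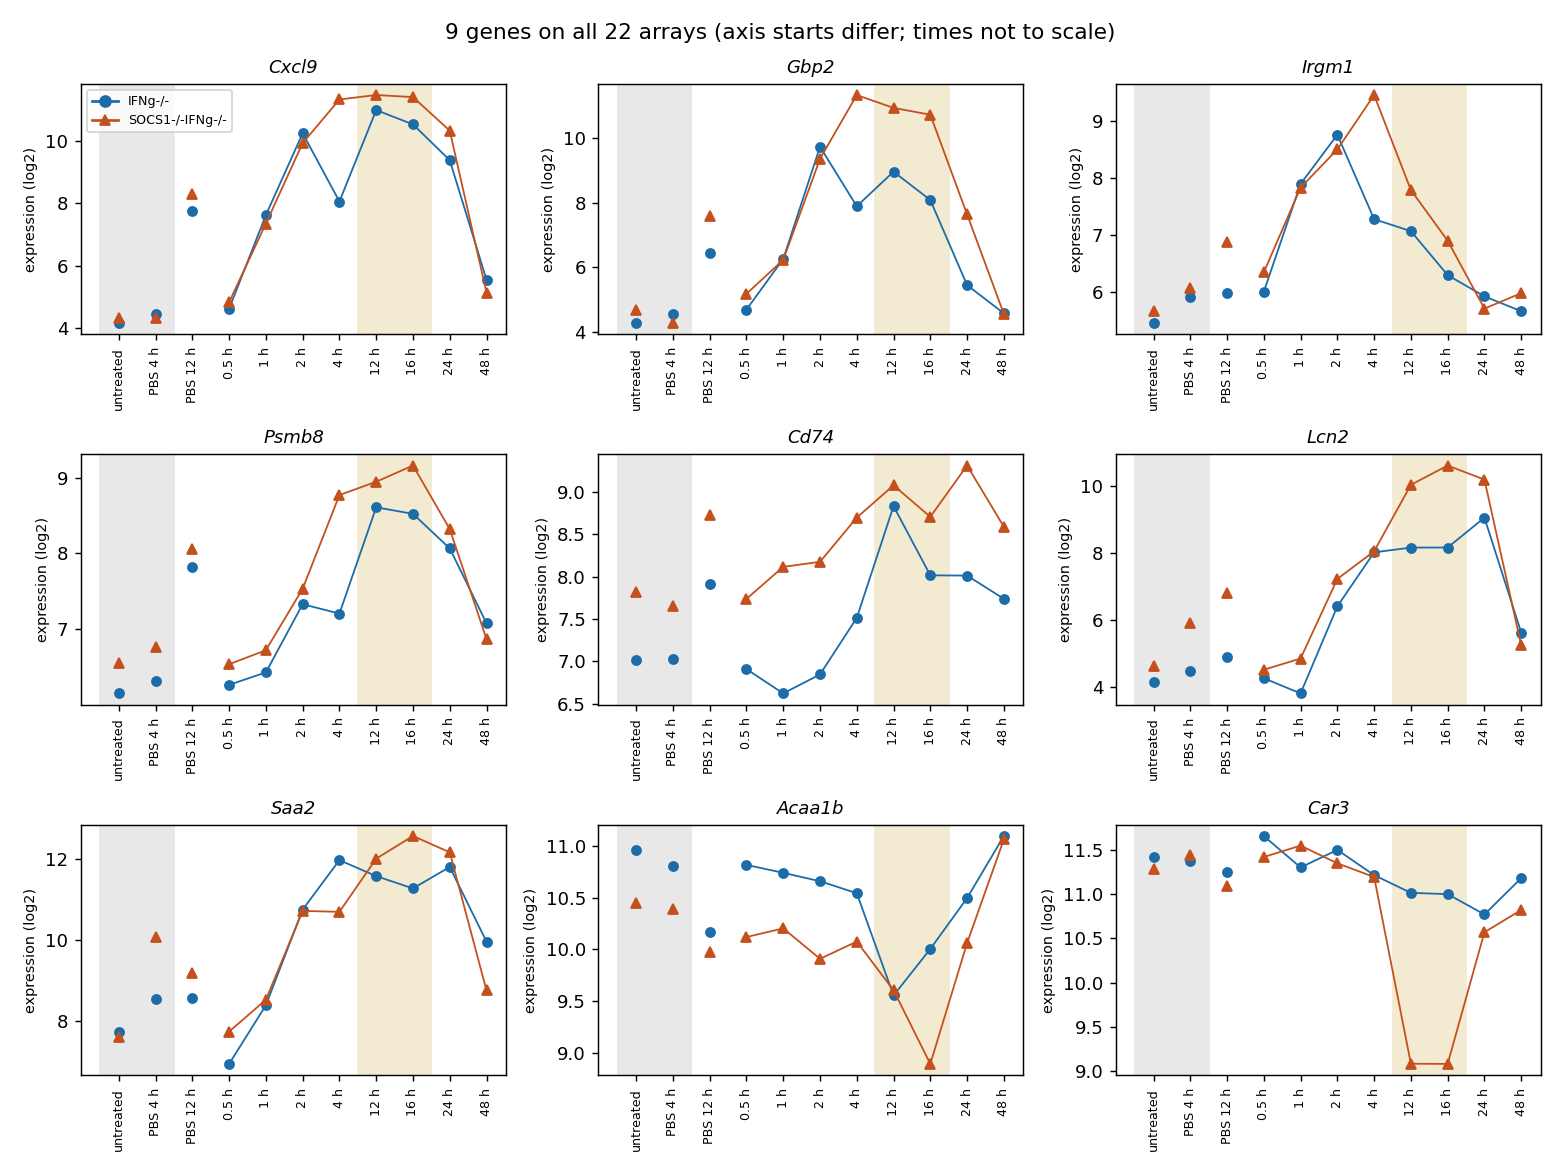
Log2 expression (y axis) of 9 genes on all 22 arrays in IFNg-/- (circles) and SOCS1-/-IFNg-/- (triangles), with the control arrays shaded grey and 12 and 16 h shaded yellow. Cxcl9 is still at 10.53 and 11.41 at 16 h and at 5.54 and 5.13 at 48 h, and Car3 is at 9.08 only on the SOCS1-/-IFNg-/- arrays of 12 and 16 h.

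Set against the PBS 12 h livers, which share the time of the 12 h arrays, fewer genes stood out. limma called 17 genes (0.206%), 14 higher (0.17%) and 3 lower (0.0364%), from 4 arrays against 2, with 559 at an unadjusted p under 0.05. Cxcl9 was 7.76 and 8.31 on the PBS 12 h arrays (IFNg-/- first), above every untreated and PBS 4 h array and below every 12 and 16 h array, and the difference was 3.07 ± 0.13 (adjusted p = 0.000295). Gbp2 was 6.44 and 7.60 there and differed by 2.66 ± 0.31 (limma adjusted p = 0.0438). Apart from the fits with 1 array removed, 6 other settings were run. Gbp2 lost its call in 5 of them and Cxcl9 in 1. Why vehicle-injected mice that lack interferon-gamma carried these transcripts at 12 h was not tested.

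Acute phase genes made up 7 of the 14 genes higher than PBS 12 h. Lcn2 was 4.88 and 6.79 on the PBS 12 h arrays and stood 3.41 ± 0.16 higher at 12 and 16 h (limma adjusted p = 0.000295). Saa2 was 8.58 and 9.18 there and stood 2.97 higher, and Serpina3n stood 1.37 higher. Of 28 acute phase genes 7 were called, with a median of 0.49, and of 9 GTPases 1 (Gbp2), with a median of 0.70. The metallothioneins Mt2 and Mt1 stood 1.78 and 1.72 higher and were called here. Mt2 lost its call in all 6 other settings run with every array of the main fit or with the 12 h arrays alone. Psmb8 was 7.82 and 8.07 on these arrays and stood 0.87 higher (adjusted p = 0.042). The 3 lower genes were Hmgcs1 (-1.01), Idi1 (-0.85) and Fdft1 (-0.76), all of cholesterol synthesis. In the same 6 settings Hmgcs1 lost its call in 5, Idi1 in 4 and Fdft1 in 1. Against untreated and PBS 4 h controls these 3 differed by -0.12, -0.32 and 0.07, none called. Without the SOCS1-/-IFNg-/- PBS 12 h array 3 genes were called, without either the IFNg-/- 12 h or the SOCS1-/-IFNg-/- 16 h array 4, without the SOCS1-/-IFNg-/- 12 h array 9, and without the IFNg-/- 16 h array 35.

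The 84 called genes were followed over the other conditions as a description, since they were chosen on the 12 and 16 h arrays. The median of the 74 that rose, relative to the 4 controls, climbed through 0.05, 0.36 and 0.70 (1, 2 and 4 h) to 1.01 after 12 h and stood at 0.79, 0.42 and 0.11 after 16, 24 and 48 h. Their highest mean fell at 2 h for 6 genes, 4 h for 8, 12 h for 40, 16 h for 15 and 24 h for 5. On the PBS 12 h arrays the median was 0.40 and 72 of the 74 lay above controls. The 10 genes that fell had medians of -0.59 and -0.62 after 12 and 16 h, -0.19 after 24 h and 0.15 after 48 h, when 7 lay above controls, and -0.29 on the PBS 12 h arrays, where 0 did.

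**Figure D5:**
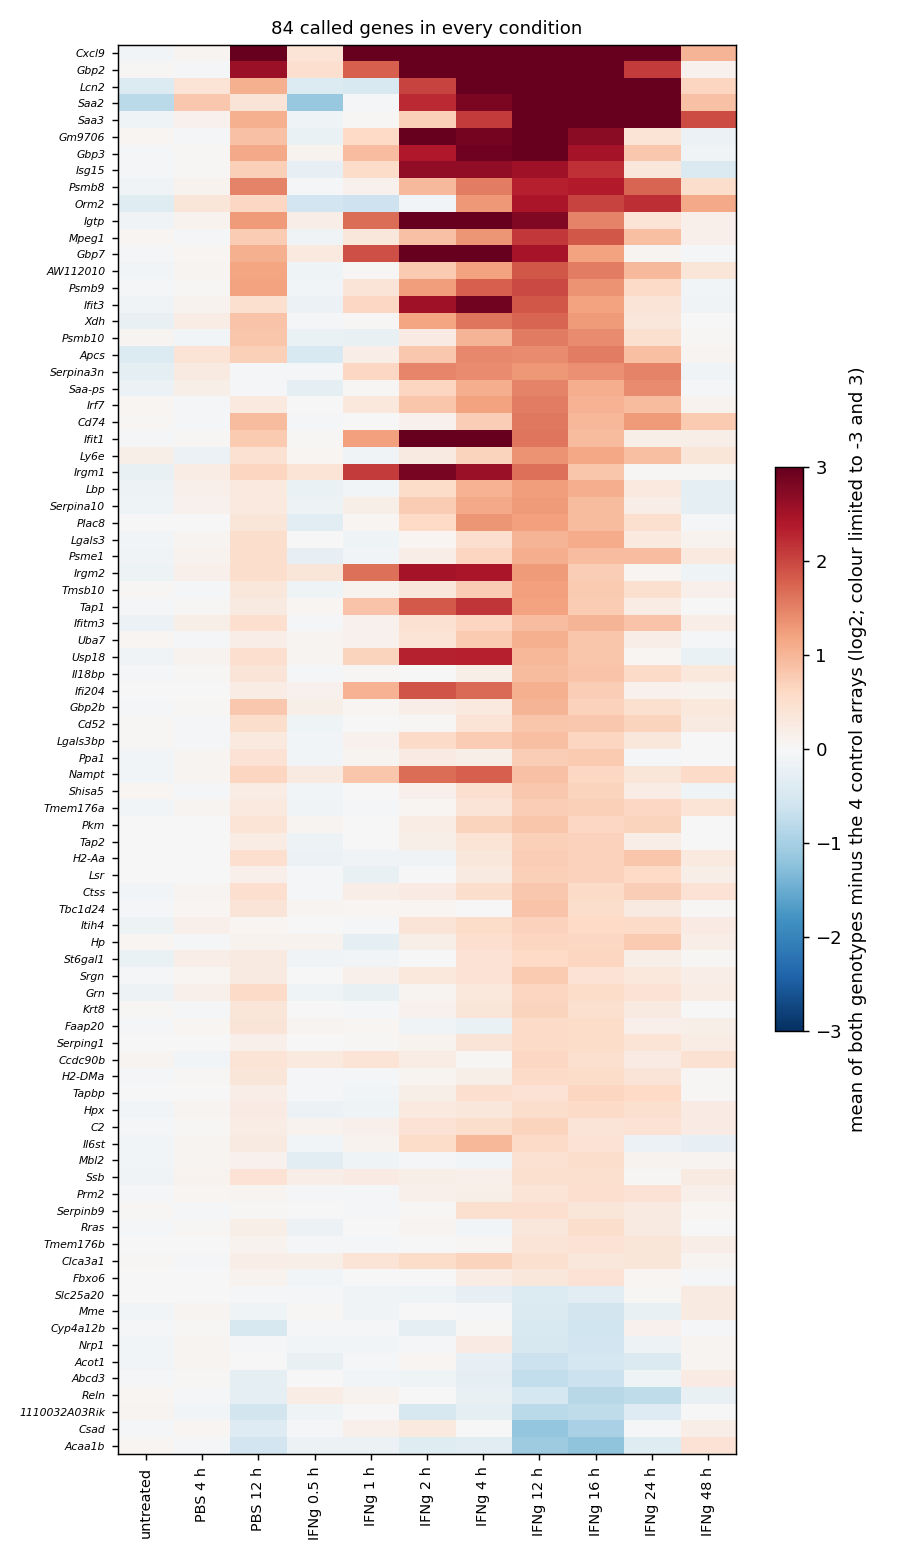
Mean log2 value of both genotypes minus the mean of the 4 control arrays (colour, limited to -3 and 3) for the 84 called genes (rows, ordered by their 12 and 16 h difference) in each of the 11 conditions (columns). Igtp, Ifit1 and Irgm1 are darkest at 2 and 4 h, whereas Lcn2, Saa2 and Saa3 stay dark through 24 h.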

How the data were processed

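Livers were profiled on Affymetrix 3-prime expression arrays, 1 array per sample. Per the labels' protocols, Trizol and RNeasy columns were used for the RNA, which was labelled as cRNA. The authors deposited log2 expression values, 1 per probe set, and the submitters' processing notes name affy. No source used here gives the background correction, normalization or summary method. That the scale is log2 was taken from their range, 1.73 to 13.5.

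Of 12488 probe sets, 10833 had 1 gene symbol in the platform table; 396 with several and 1193 with none were not used, nor were 66 control probe sets. The probe set with the highest mean stood for a gene, leaving 8251 genes. No arrays were identical (highest r 0.997). The number of arrays limits the precision.

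Fits used limma 3.58.1 (R 4.3.3; lmFit, eBayes) with genotype as covariate and Benjamini-Hochberg adjustment over all genes at 0.05. They were checked on simulated data. Residual degrees of freedom were 5 for the 12 and 16 h response and the comparisons with 1 and 2 h and 24 and 48 h, 4 for the genotype difference and 16 against 12 h, and 3 against PBS 12 h. Non-overlap means that every treated array lies on one side of every control. Summed marker levels are sums of values taken out of the log2 scale. The 25 lists held 584 genes, 446 of them measured.

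By rule the text names Socs1 and Ifng, the 15 largest rises and up to 12 falls, 5 each way in other comparisons, up to 4 members per list, and a fixed set. Cell marker and tubulin genes and Ccl2, H2-K1, H2-D1, Mx1, Rsad2, Ifi47, Iigp1, Irgm2, Gbp2b, Ly6e, Uba7, Apcs, Lbp, Itih4 and Mt1 were named after their values were seen. The arrays, lists and genes were chosen with earlier results of these data known. Alternatives left out each array, changed controls, times, normalization, probe sets, filter and spread. Contrasts within 1 genotype, and the fit of all arrays with PBS 12 h among the controls, were added after the data were seen.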

Additional observations from a re-analysis of the deposited data

Results flagged for a closer look

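In Car3 the response differed between the genotypes by an interaction of -1.89 (limma adjusted p = 0.00113), and in Hsd3b6 by -1.56 (adjusted p = 0.00993). In Hsd3b3 it differed by -1.29 (adjusted p = 0.0151) and in Creld2 by 2.63 (adjusted p = 0.0444).

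For Mpeg1, the untreated SOCS1-/-IFNg-/- array stood at 7.42, far from the other 3 controls, of which the nearest was 7.15 (gap over range 0.853). For Mme, the SOCS1-/-IFNg-/- 16 h array stood at 3.61, below the nearest treated array at 3.83 (0.967). Chance flags about 1 in 20 groups, and 50 groups of 4 arrays were looked at.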

How the results depend on the processing

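No paired analysis was possible because the labels give no replicate numbers, and a liver's number within a group is only an accession order; a condition held 1 array per genotype. With the sampled condition as a random block the estimated correlation was -0.0168 and 84 genes were called.

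No gene named by a comparison reversed its sign in any setting run. In the 12 and 16 h response, 1429 of 2004 gene values kept their call and 575 lost it. The counts of genes called moved more. For the 12 and 16 h response (84), they were 198 with array weights, 20 against PBS 4 h alone and 36 at 16 h alone. With the spread from all 22 arrays the count was 177, and without the genotype term 49. Contrasts within IFNg-/- gave 16 and within SOCS1-/-IFNg-/- 176, both with the spread of the 8 arrays of the main fit. Using both the spread from all 22 arrays and PBS 12 h among the controls gave 136. PBS 12 h among the controls alone gave 64, of which 53 were among the 84. Leaving out 1 array at a time gave 53 to 111. For the genotype difference (4), genes at or above the median level gave 2, and leaving out an array 1 to 6. Against 1 and 2 h (196) leaving out an array gave 55 to 128. Against 24 and 48 h (105) the 24 h arrays alone gave 10, and leaving out an array 0 to 170. Against PBS 12 h (17), trend and robust fitting and array weights gave 8 each, bright genes and the probe set with the largest SD 5 each, and the 12 h arrays alone with the spread of all 22 gave 9; leaving out an array gave 3 to 35. Causes of these moves were not tested, beyond the fewer arrays or genes that some settings use. Between 16 and 12 h the count was 0 in all settings run.

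With 4 arrays against 4 a difference that misses the threshold is not shown to be absent. Of 26 further probe sets of called genes, 18 had the same sign and 4 also passed.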

Other observations

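Tubulin genes, which build the microtubules of the cell, were picked out after their values were seen. At 12 and 16 h Tubb2a was 9.92 and 9.56 in IFNg-/- livers and 10.35 and 10.18 in SOCS1-/-IFNg-/-, and it was 9.43 and 9.10, then 9.03 and 9.10, at 24 and 48 h. It stood 0.83 higher at 12 and 16 h than at 24 and 48 h, and Tubb5 0.78 and Tubb6 0.64 higher (limma adjusted p = 0.0429, 0.0458 and 0.0499). Against untreated and PBS 4 h controls none of the 3 was called, and on the PBS 12 h arrays Tubb2a was 10.01 and 10.23, as high as after interferon-gamma.

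Of 11 proliferation genes measured 0 were called, 2 lay above controls, and the median difference was -0.08.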
